A study of Homo sapiens with 6 samples.

Results

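The genes described here encode the integrins, the cell's receptors for extracellular matrix, and the laminins, matrix proteins to which several integrins bind. The 2 families were picked for description with earlier results of these data known, and their members were then taken by symbol, as the rows of the deposited table whose symbol is an integrin α or β gene (ITGA or ITGB followed by letters or digits) or a laminin α, β or γ chain gene (LAMA, LAMB or LAMC followed by 1 digit). Of 27451 gene rows, 39 met this rule: 18 integrin α genes, 9 genes beginning with ITGB and 12 laminin genes. ITGBL1, which encodes a secreted protein resembling part of a β chain and is no receptor subunit, is among the 9. The rows of 3 genes for proteins that bind integrins (ITGB1BP1, ITGB1BP2 and ITGB3BP) were left out. RNA came from MDA-MB-231, an established line grown from a human breast cancer, after DMSO, the solvent control (3 libraries), or H182 at 2 µM for 2 h (3 libraries). The series title names H182's setting as the inhibition of Stat3, a transcription factor. All 6 libraries were from this single, genetically unmodified line as far as the labels say, and whether the replicates were separate cultures is not given in the sources used here, so that a p-value reflects only how far these libraries vary, and part of that may be technical.

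An integrin is a pair of 1 α and 1 β chain that spans the membrane, gripping matrix outside the cell and, through talin, kindlin and their partners, the actin cytoskeleton inside it. The α chain largely sets the ligand: some α chains bind laminin, some collagen, and some the RGD motif of fibronectin and vitronectin. Laminins are cross-shaped trimers of 1 α, 1 β and 1 γ chain that form the base layer of the basement membrane, and invading carcinoma cells such as these are known for using both families to move through matrix.

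Values were TPM, a unit that corrects reads for transcript length and brings each library to a total of 1000000, so that levels can be compared between genes while sequencing depth is unknown. Between 12230 and 12353 genes reached 1 TPM in a library. The line's labelled identity was checked on its markers. In DMSO, vimentin (VIM) stood at 4026 ± 24.3 TPM and the hyaluronan receptor CD44 at 1154 ± 30.8 TPM (SD, n = 3), while the estrogen and progesterone receptor genes ESR1 and PGR did not exceed 0.06 TPM in any library. SPARC, placed on the same list of mesenchymal markers, did not exceed 0.84 TPM. The luminal list that holds ESR1 and PGR was not low throughout. In DMSO its keratins KRT8 and KRT18 stood at 482 ± 5.51 and 466 ± 8.13 TPM, and GATA3 at 10.3 ± 0.883 TPM. The median change of all 12294 tested genes was -0.09 on the log2 scale of TPM + 1, and TPM are shares of a fixed total. A second scaling (median-of-ratios, which divides each library by its typical ratio to the other libraries and brings that median to 0.00) is therefore also given, as rescaled TPM. Between libraries, Pearson's r of log2 values was 0.9928 to 0.9942 within groups and 0.9787 to 0.9806 across them.

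After 2 h with H182, 11 integrin and laminin genes were modestly lower in TPM and none of those tested was called higher. Of the 39 genes, 22 averaged 1 TPM or more across the 6 libraries and were tested. Among these 11 fell, 0 rose and 11 did not pass an adjusted p of 0.05 (limma, Benjamini-Hochberg over all tested genes). At an unadjusted p under 0.05, 14 were lower and 0 were higher, and 0 were higher in rescaled TPM too. Of all 12294 tested genes, 3647 were lower and 952 higher at that unadjusted threshold, and 1811 were higher in rescaled TPM. At the adjusted threshold, 18.7% of all tested genes were called lower and 5.3% higher. The falls included ITGB5, ITGB1, ITGA6, ITGA3 and ITGA5 among integrins and LAMC1, LAMB1, LAMA5, LAMB2 and LAMB3 among laminins. By family, they made up 3 of 8 tested α genes, 2 of 6 tested ITGB genes and 6 of 8 tested laminin genes. The changes of the 22 genes ran from -0.56 to 0.05 on the log2 scale, with a median of -0.19, and 0 reached 2-fold. In bulk RNA, fewer cells carrying a transcript and less of it per cell cannot be told apart.

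In rescaled TPM 5 of the 22 genes were called lower and 0 higher, where 6.78% of all tested genes were lower and 7.88% higher. Those 5 were ITGB5, ITGB1, ITGA6, ITGA3 and LAMC1, and their rescaled changes lay between -0.32 and -0.14. The remaining 6 calls were lost with that scaling. The median change of the 22 genes was then -0.09, against 0.00 for all tested genes. Abundant genes were called more often: of the 1864 tested genes averaging 100 TPM or more, 35.2% were lower in TPM and 11.6% after rescaling. All 7 integrin and laminin genes at that level fell in TPM, and 5 of the 7 with the other scaling. In TPM, every H182 library lay below every DMSO library in 14 of the 22 genes, against 32.7% of all tested genes. At 100 TPM or more this held for 955 of 1864 tested genes and for all 7 integrin and laminin genes.

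**Figure D1:**
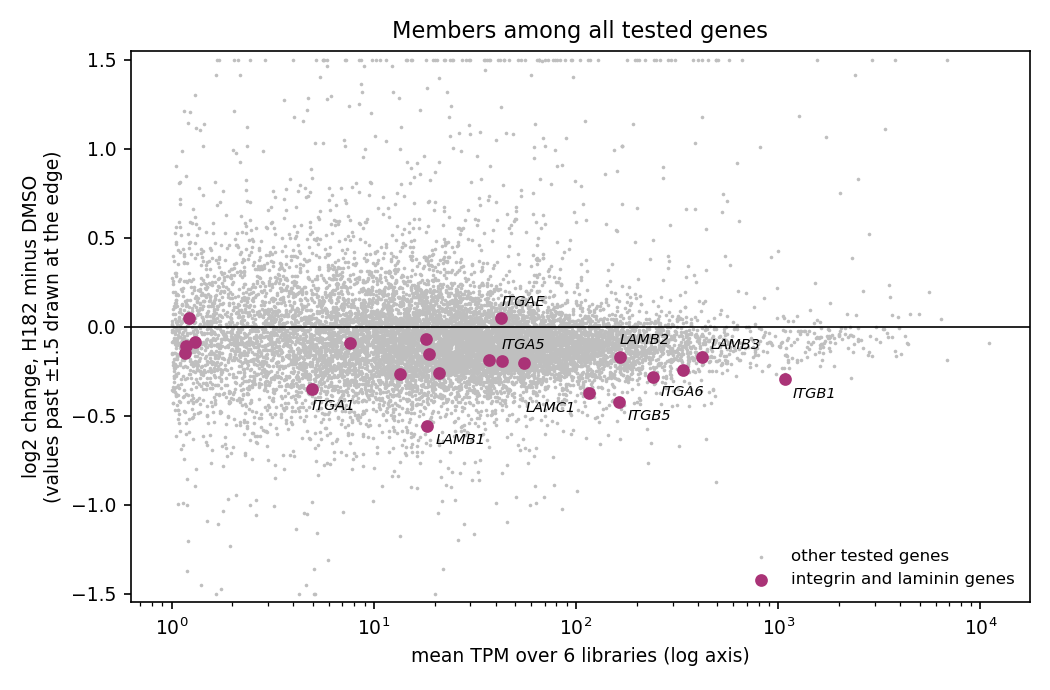
Change of every tested gene (vertical axis, log2 change of H182 against DMSO in TPM) against its mean level over 6 libraries (horizontal log axis, TPM). Values past 1.5 in either direction are drawn at the edge. Grey points are other tested genes and purple points the 22 integrin and laminin genes, of which 20 lie below 0 and 7 lie at 100 TPM or more. Of all 12294 tested genes, 8759 lie below 0 and 1864 lie at 100 TPM or more.

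ITGB1 was the most abundant of the 22 genes in DMSO, at 1185 ± 48.4 TPM, followed by LAMB3 (445 ± 16.5), ITGA3 (366 ± 6.10), ITGA6 (263 ± 6.72), ITGB5 (187 ± 7.77), LAMB2 (175 ± 4.37) and LAMC1 (130 ± 6.42; SD, n = 3). Neighbours in this order did not overlap between the DMSO libraries. LAMA5, ITGA5, ITGAE and ITGA2 lay between 39.8 and 59.6 TPM, also without overlap of neighbours. ITGAV, LAMB1, ITGB4 and ITGB2 lay between 18.5 and 23.0 TPM, and each overlapped the next in order. LAMA3 and ITGA1 stood at 7.99 and 5.63 TPM. ITGBL1, ITGB3, LAMA4 and ITGA10 were at 1.18 to 1.38 TPM, and neighbours among them overlapped.

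**Figure D2:**
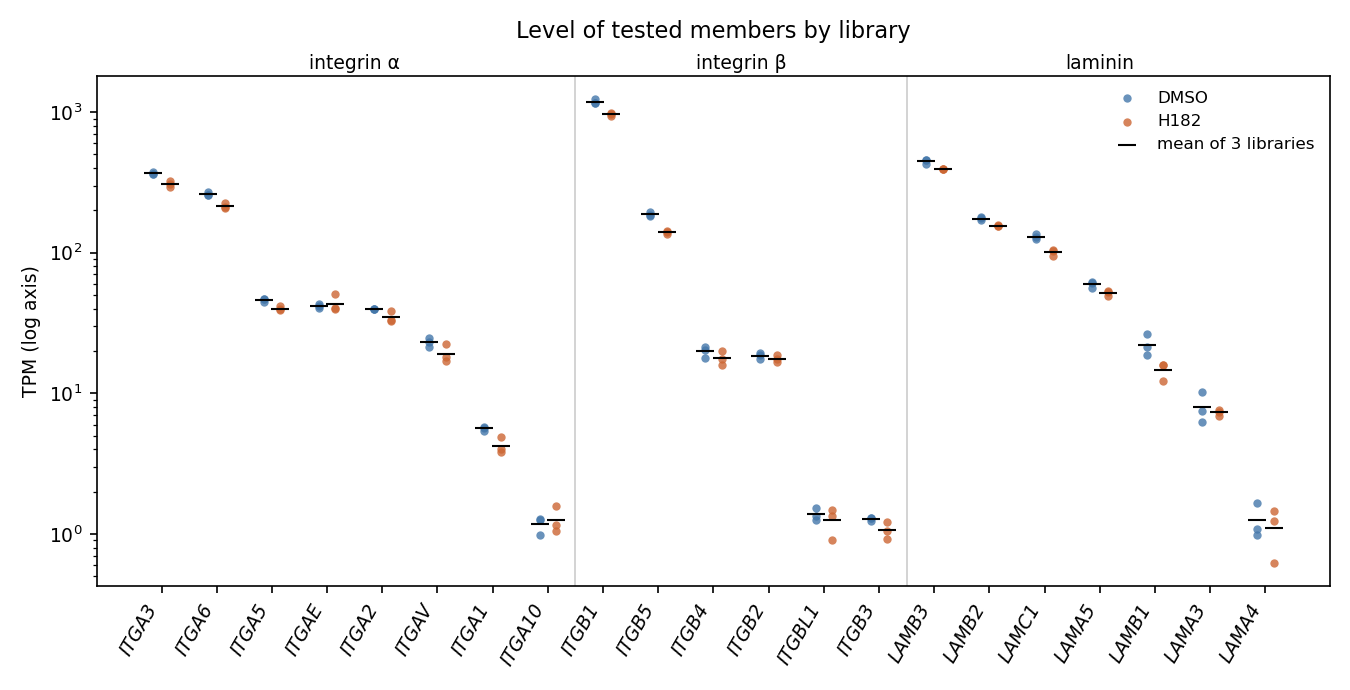
TPM on a log axis for 21 of the 22 tested genes, by library (blue DMSO, orange H182, 3 points each), with black bars for the group means. ITGB1 stands above all others with means of 1185 TPM (DMSO) and 965 TPM (H182), and ITGA10, ITGB3, ITGBL1 and LAMA4 lie near 1 TPM.

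Among β chains, ITGB1 and ITGB5 fell. ITGB1 (ENSG00000150093.18, chromosome 10, 32900319 to 33005792, GRCh38, minus strand) encodes β1, the shared partner of most α chains. It was at 1152, 1240 and 1163 TPM in the DMSO libraries and at 941, 963 and 990 TPM in the H182 libraries. The lowest DMSO library thus stood well above the highest H182 library, and the H182 mean was 81.4% of the DMSO mean (log2 change -0.30, SE 0.038, adjusted p = 0.000623; adjusted p = 0.00677 in rescaled TPM).

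ITGB5 (ENSG00000082781.11, chromosome 3, 124761948 to 124901418, minus strand) encodes β5, which pairs with αV alone and binds vitronectin. Its levels were 196, 181 and 185 TPM in DMSO and 143, 141 and 135 TPM in H182. This was a fall to 74.5% of the DMSO mean, with the groups far apart (log2 change -0.42, SE 0.045, adjusted p = 0.000182), and it passed in rescaled TPM as well (-0.32, adjusted p = 0.00352). ITGB5 had the lowest adjusted p of the 22 genes.

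ITGB4, whose long cytoplasmic tail anchors the α6β4 pair to keratin filaments in hemidesmosomes, was at 17.96, 21.3 and 20.4 TPM in DMSO and 17.5, 19.9 and 15.9 TPM in H182. The groups overlapped (log2 change -0.16, adjusted p = 0.281). ITGB2, the β chain of leukocyte integrins, was at 18.8, 17.5 and 19.3 TPM and at 17.7, 18.6 and 16.7 TPM. Its groups overlapped too, and its change of -0.07 turned to 0.03 in rescaled TPM. ITGB3, the β chain of platelet and αVβ3 integrins, was at 1.24 to 1.30 TPM in DMSO and 0.92 to 1.21 TPM in H182 without overlap (log2 change -0.15, adjusted p = 0.513). A readthrough gene, AC068234.1, shares 2266 exon bases with ITGB3 on the same strand and was at 0 to 0.29 TPM. ITGBL1 was at 1.25 to 1.54 and 0.91 to 1.48 TPM (-0.09, adjusted p = 0.737).

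Among α chains, both abundant laminin receptors fell. ITGA3 (ENSG00000005884.17, chromosome 17, 50055968 to 50090481, plus strand) encodes α3, which with β1 binds laminins holding the α3 or α5 chain. It was at 364, 361 and 373 TPM in DMSO and 295, 322 and 310 TPM in H182. No H182 library reached the DMSO range, and the mean stood at 84.4% of DMSO (log2 change -0.25, SE 0.041, adjusted p = 0.00254; -0.14 and adjusted p = 0.0444 in rescaled TPM).

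ITGA6 (ENSG00000091409.14, chromosome 2, 172427354 to 172506282, plus strand) encodes α6, which pairs with β1 or β4. It was at 258, 270 and 259 TPM in DMSO and 211, 209 and 227 TPM in H182. The groups were again separate, at 82.1% of the DMSO mean (log2 change -0.28, SE 0.043, adjusted p = 0.00157; -0.18 and adjusted p = 0.0119 in rescaled TPM). ITGA7, a laminin receptor chain of muscle, was not tested, at 0.29 to 0.62 TPM in DMSO and 0.77 to 1.03 TPM in H182.

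ITGA5 (ENSG00000161638.10, chromosome 12, 54395261 to 54419460, minus strand), the α chain of the fibronectin receptor, was at 46.8, 44.5 and 46.7 TPM in DMSO and 41.5, 38.9 and 39.8 TPM in H182. The groups did not overlap, and the H182 mean was 87.1% of DMSO (log2 change -0.19, SE 0.055, adjusted p = 0.0297). The call did not hold in rescaled TPM (adjusted p = 0.313), with quantile normalization (0.212) or with no mean-variance trend (0.0505). It was also lost without DMSO replicate 1 (0.0849), DMSO replicate 3 (0.087), H182 replicate 2 (0.0973) or H182 replicate 3 (0.058), and without DMSO replicate 2 it stood just past the threshold at 0.05.

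ITGAV, the α chain shared by the vitronectin receptors, was at 21.3, 24.6 and 23.0 TPM in DMSO and 18.03, 16.95 and 22.4 TPM in H182. H182 replicate 3 lay inside the DMSO range (log2 change -0.26, adjusted p = 0.102), and without it the change was -0.37 with an adjusted p of 0.0183. The collagen receptor chains did not pass either. ITGA2 was at 39.8, 40.1 and 39.5 TPM in DMSO and 32.9, 33.1 and 38.6 TPM in H182 (log2 change -0.19, adjusted p = 0.079; -0.26 and 0.0147 without H182 replicate 3). ITGA1, its neighbour on chromosome 5 at a distance of 30.1 kb, was at 5.70, 5.39 and 5.80 TPM and at 4.85, 3.82 and 4.0 TPM (log2 change -0.35, adjusted p = 0.0582; -0.43 and 0.0443 without H182 replicate 1). In both genes the groups did not overlap. Exons of ITGA1 share 475 bases with PELO on the same strand, a ribosome rescue factor read at 25.3 ± 1.47 TPM with DMSO and 28.0 ± 2.15 TPM with H182. ITGA10, a collagen receptor chain of cartilage, was at 0.99 to 1.28 and 1.05 to 1.57 TPM (log2 change 0.05, adjusted p = 0.854). Its sign turned without DMSO replicate 1 (-0.01) or H182 replicate 1 (-0.05).

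ITGAE, the α chain of the E-cadherin receptor of intraepithelial lymphocytes, did not pass the test. It was at 40.5, 43.0 and 41.9 TPM in DMSO and 50.5, 40.4 and 39.6 TPM in H182. H182 replicate 1 was high and the other two lay just below the DMSO libraries (log2 change 0.05, adjusted p = 0.737; -0.06 without H182 replicate 1). The ratio of ITGB1 to ITGAE, which no scaling of a library can alter, was 28.4, 28.9 and 27.8 in DMSO and 18.65, 23.8 and 25.04 in H182. The ratio was lower in every H182 library. The mitotic kinase gene HASPIN (listed under its older symbol GSG2) lies within ITGAE on the other strand, with 427 exon bases in common. HASPIN fell to 46.5% of its DMSO mean (28.4 ± 1.76 to 13.2 ± 0.631 TPM, adjusted p = 1.08e-05; 3.06e-05 in rescaled TPM). Whether counting used strand is not given in the sources used here, and any exchange of reads between the genes was not tested.

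**Figure D3:**
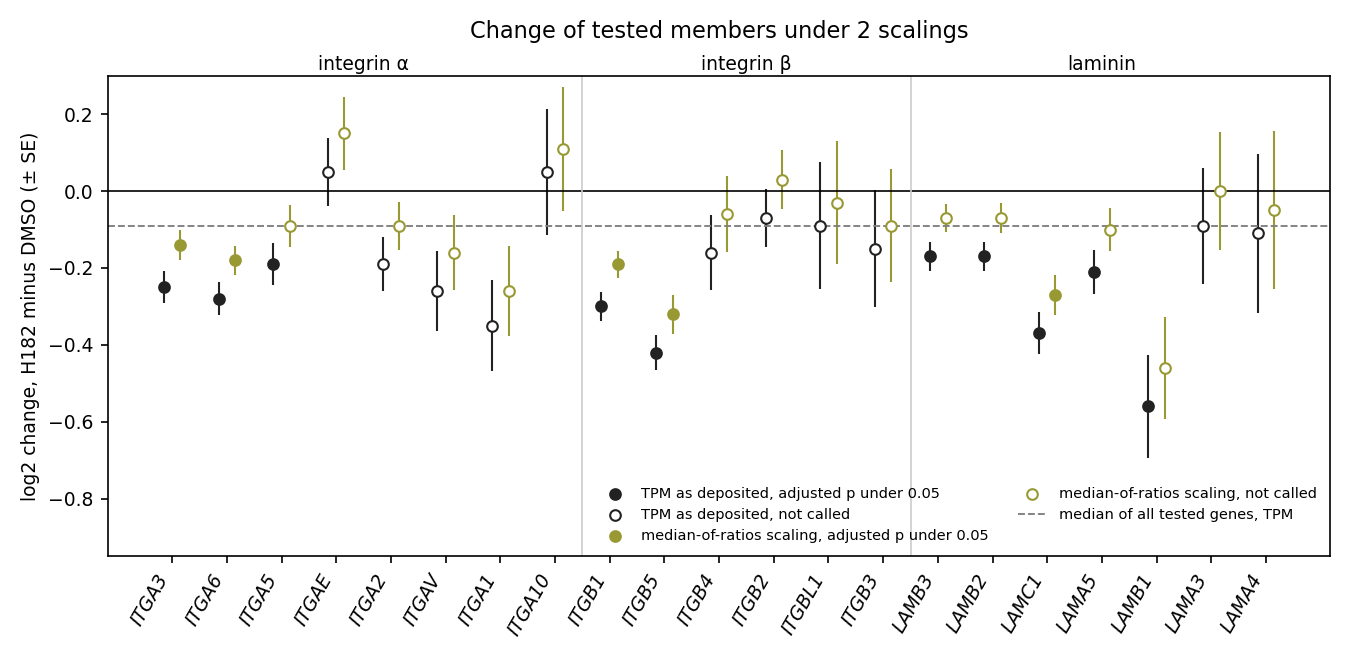
Log2 change of H182 against DMSO with its SE (vertical axis) for 21 of the 22 tested genes in TPM (black) and in rescaled TPM (olive). Filled symbols passed an adjusted p of 0.05: 10 of those shown in TPM and 5 with the other scaling. The dashed line is the median of all tested genes, -0.09.

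The levels of partner chains were compared within each library. The integrin α genes together came to 787 ± 6.50 TPM in DMSO and 669 ± 13.5 TPM in H182, and the β genes without ITGBL1 to 1413 ± 42.9 and 1141 ± 18.9 TPM. In TPM both were lower in every H182 library, at 84.9% and 80.8% of DMSO, and they were not taken in rescaled TPM. ITGB1 made up 83.8 ± 0.889% of β chain TPM in DMSO and 84.5 ± 0.818% in H182, and ITGA3 and ITGA6 made up 46.5% and 33.4% of α chain TPM in DMSO. The ratio of ITGB1 to the sum of its α partners was 1.59 ± 0.0597 in DMSO and 1.54 ± 0.0100 in H182, with overlapping groups. The ratio of the whole β sum to the whole α sum, in contrast, was 1.78, 1.85 and 1.76 in DMSO and 1.71, 1.72 and 1.70 in H182, lower in every H182 library. The ratio of ITGA3 to ITGB1 (0.309 ± 0.0161 and 0.320 ± 0.0124) and that of ITGA6 to ITGB1 (0.222 ± 0.00333 and 0.223 ± 0.00577) overlapped. ITGA6 was 13.3 ± 0.963 times as abundant as ITGB4 in DMSO. ITGB5 was 8.20 ± 0.934 times as abundant as ITGAV, its sole partner, and 7.43 ± 1.24 times in H182. These ratios were picked after the values were seen and were not tested, since with 3 libraries a group the smallest p of an exact permutation test is 0.1.

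Some chains were read far above the level of their known partners. The 4 α chains that pair with ITGB2 in leukocytes (ITGAL, ITGAM, ITGAX and ITGAD) summed to at most 0.17 TPM in any library, and ITGAL and ITGAD were listed at 0 in all 6, while ITGB2 itself was at 16.7 to 19.3 TPM. ITGB7, the β partner of ITGAE, did not exceed 0.05 TPM, and CDH1, which encodes the ligand E-cadherin, did not exceed 0.28 TPM. The T cell gene CD3E was listed at 0 in 5 of the 6 libraries, and the pan-leukocyte gene PTPRC did not exceed 1.07 TPM. Summed over all 8 leukocyte markers the level was 152 to 164 TPM in DMSO and 144 to 152 TPM in H182, of which CD68, a lysosomal protein gene also read in other cell types, made up 138 to 157 TPM per library. None of the 3 tested leukocyte markers passed the adjusted threshold, and CD68 had the lowest adjusted p among them (0.0665).

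**Figure D4:**
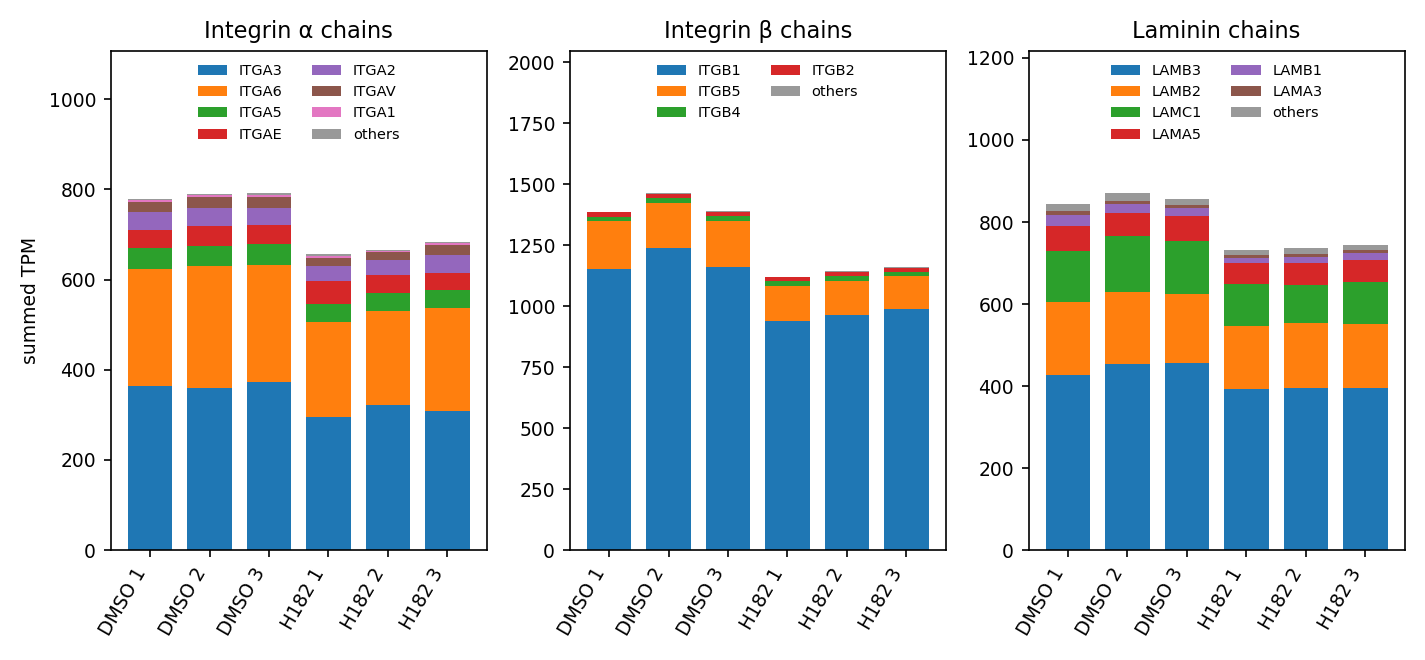
Summed TPM of integrin α, integrin β and laminin chain genes in each library (stacked bars from 0). ITGB1 fills most of every β bar (83.8% on average in DMSO), ITGA3 and ITGA6 most of every α bar, and LAMB3 is the largest laminin part. Bars of the 3 H182 libraries are shorter than those of the 3 DMSO libraries in each panel.

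Among laminins, 6 of the 8 tested genes fell. LAMC1 (ENSG00000135862.5, chromosome 1, 183023460 to 183145592, plus strand) encodes γ1, the γ chain of most laminins. It was at 124, 137 and 129 TPM in DMSO and 103, 94.2 and 104 TPM in H182. The groups were well separated, at 77.1% of the DMSO mean (log2 change -0.37, SE 0.055, adjusted p = 0.00135; -0.27 and adjusted p = 0.00876 in rescaled TPM). LAMC1 was the sole laminin gene called with both scalings.

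LAMB1 (ENSG00000091136.13, chromosome 7, 107923799 to 108003255, minus strand), which encodes β1, had the largest change of the 22 genes. It was at 26.3, 21.3 and 18.8 TPM in DMSO and 12.3, 15.9 and 15.8 TPM in H182. DMSO replicate 1 was the highest and H182 replicate 1 the lowest library, and the groups did not overlap (66.3% of the DMSO mean; log2 change -0.56, SE 0.133, adjusted p = 0.0155). The adjusted p was 0.0505 in rescaled TPM (-0.46), 0.0574 with no filter on low values and 0.0514 without H182 replicate 1 (-0.44). LAMB1 shares 70 exon bases with DLD on the other strand, a dehydrogenase subunit gene that fell from 88.1 ± 4.98 to 76.2 ± 0.885 TPM (adjusted p = 0.0185), a call lost after rescaling (-0.10, adjusted p = 0.232).

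LAMB2 (ENSG00000172037.13, chromosome 3, 49121114 to 49133118, minus strand), which encodes β2, was at 178, 176 and 170 TPM in DMSO and 154, 157 and 155 TPM in H182 (log2 change -0.17, SE 0.038, adjusted p = 0.0122). Its groups were separate and each narrow. The call was lost in rescaled TPM (-0.07, adjusted p = 0.302), with quantile normalization (0.133) and with no mean-variance trend (0.0575). Within each library the ratio of LAMB1 to LAMB2 was 0.148, 0.121 and 0.110 in DMSO and 0.0801, 0.102 and 0.102 in H182, and that of LAMC1 to LAMB2 was 0.697, 0.778 and 0.762 against 0.667, 0.601 and 0.672. Both ratios were lower in every H182 library.

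LAMA5 (ENSG00000130702.13, chromosome 20, 62307955 to 62367312, minus strand) encodes α5, found in widespread epithelial and vascular laminins, and held 86.0 ± 1.93% of laminin α chain TPM in DMSO. It was at 61.9, 56.0 and 60.8 TPM in DMSO and 49.2, 52.2 and 53.2 TPM in H182 (log2 change -0.21, SE 0.058, adjusted p = 0.0312). The groups did not overlap. The call was lost in rescaled TPM (0.262), with quantile normalization (0.158), with no mean-variance trend (0.0674), with no filter on low values (0.0533), and without DMSO replicate 1 (0.0975), DMSO replicate 3 (0.0911), H182 replicate 1 (0.0965) or H182 replicate 2 (0.0717). LAMA5 shares 244 exon bases with ADRM1, a proteasome receptor gene on the other strand, which was at 287 ± 7.57 and 283 ± 0.771 TPM and did not pass.

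LAMA3 and LAMB3 encode the α and β chains of the laminin that holds epidermis to its basement membrane, and their levels were far apart. LAMB3 (ENSG00000196878.12, chromosome 1, 209614870 to 209652466, minus strand) was at 426, 454 and 456 TPM in DMSO and 393, 396 and 395 TPM in H182. The H182 libraries were nearly equal and all below DMSO (88.7% of the DMSO mean; log2 change -0.17, SE 0.037, adjusted p = 0.00925), a call lost in rescaled TPM (-0.07, adjusted p = 0.256) and with no mean-variance trend (0.0637). LAMA3 was at 10.2, 7.52 and 6.23 TPM in DMSO and 7.59, 6.92 and 7.41 TPM in H182, with the H182 libraries inside the DMSO range (log2 change -0.09, adjusted p = 0.704; 0.08 without DMSO replicate 1 and 0.00 in rescaled TPM). LAMB3 was 58.4 ± 15.8 times as abundant as LAMA3 in DMSO and 54.2 ± 2.80 times in H182, with overlapping groups.

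LAMA4, an α chain of vessel walls and fat, was at 0.98 to 1.67 TPM in DMSO and 0.62 to 1.45 TPM in H182 (log2 change -0.11, adjusted p = 0.747), and its sign turned without DMSO replicate 3 (0.02) or H182 replicate 1 (0.07). The α and β laminin genes summed to 69.3 ± 4.08 and 642 ± 10.5 TPM in DMSO and to 60.8 ± 2.52 and 565 ± 4.80 TPM in H182. In TPM both sums were lower in every H182 library. Sums were not taken in rescaled TPM, where the call of LAMA5, the largest part of the α sum, was lost.

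Sequence before the start was also described, and no link between its letters and the changes was tested. The RefSeq promoter table (build GRCh38.p14; 250 bases before to 50 after a start) held 34 windows for 27 of the 39 genes, and 24 windows for 17 of the 22 tested. ITGA3, ITGB2, ITGB3 and ITGB4 were among the tested genes without an entry. Motifs were searched by exact letters on both strands. The GC box GGGCGG was in 17 of the 24 windows and in 45.0% of all 35116 windows of the table. Those 17 windows belong to 12 genes and partly overlap where a gene has several starts. The median GC content was 61.3% in the 24 windows and 58.7% in all. Windows of the whole table were counted whatever the level of their genes here, while the 24 belong to tested genes. With untested genes of the 2 families included, the GC box was in 20 of 34 windows. The AP-1 letters TGACTCA were in 3 of the 24 windows (4.9% of all), the cyclic AMP element TGACGTCA in 0 (1.8%), GAANNTTC, part of a heat shock element, in 1 (6.8%), the STAT letters TTCNNNGAA in 2 (7.7%), and TATAAA in 2 (11.5%). The STAT letters were at ITGAE and LAMB2 and the heat shock letters at LAMA4. The search for GGGCGG and TATAAA was added after the data were seen.

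The bases before the starts of LAMC1 and LAMA5, laminin genes that fell and whose 250 upstream bases hold no annotated exon, show how densely GC boxes can lie there. They are given 5′ to 3′ on the gene's strand, at chr1:183023170-183023419 (plus) and chr20:62367313-62367562 (minus), with GC boxes of either strand in capitals.
LAMC1: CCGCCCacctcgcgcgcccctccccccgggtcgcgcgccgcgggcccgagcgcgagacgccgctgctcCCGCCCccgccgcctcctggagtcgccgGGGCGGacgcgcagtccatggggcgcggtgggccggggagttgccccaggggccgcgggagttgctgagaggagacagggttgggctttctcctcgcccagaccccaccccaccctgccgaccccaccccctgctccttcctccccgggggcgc
LAMA5: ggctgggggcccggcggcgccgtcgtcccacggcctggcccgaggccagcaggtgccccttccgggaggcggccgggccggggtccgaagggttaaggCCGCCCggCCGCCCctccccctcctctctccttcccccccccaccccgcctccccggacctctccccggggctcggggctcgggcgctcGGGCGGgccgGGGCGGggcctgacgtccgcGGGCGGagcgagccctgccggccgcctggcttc
LAMC1 holds 3 GC boxes and LAMA5 holds 5. The window of ITGA2, which was not called, holds 4, as does that of ITGA8, which averaged under 1 TPM. The call of LAMA5 was lost in rescaled TPM.

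The windows with AP-1 letters belonged to ITGA5, LAMA3 and LAMB3, and the stretches around them are shown because 2 of these genes encode chains of 1 laminin. The capitals mark the 7 letters on either strand. The ITGA5 match begins 6 bases before the start, those of LAMA3 125 and 69 bases before, and that of LAMB3 67 bases before 1 of its 3 listed starts.
ITGA5, chr12:54419256-54419282, minus strand: ctccccgcgtTGAGTCAttcgcctctg
LAMA3, chr18:23872885-23872911, plus strand: tggcacaggcTGACTCAtgtgtgaagt
LAMA3, chr18:23872941-23872967, plus strand: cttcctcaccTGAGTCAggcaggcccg
LAMB3, chr1:209651425-209651451, minus strand: tcagccactcTGACTCAttcactttgg
Of these genes ITGA5 and LAMB3 fell in TPM and LAMA3 did not pass. A match of letters is a description of the sequence and not a binding site.

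The other 17 genes averaged under 1 TPM and were not tested. They were the integrin genes ITGA2B, ITGA4, ITGA7, ITGA8, ITGA9, ITGA11, ITGAD, ITGAL, ITGAM, ITGAX, ITGB6, ITGB7 and ITGB8 and the laminin genes LAMA1, LAMA2, LAMB4 and LAMC3. The highest value of any of these in any library was 1.08 TPM, for LAMA2, a muscle and nerve laminin chain, in H182 replicate 2. ITGB8, an αV partner that activates latent TGF-β, was at 0.71, 0.93 and 0.67 TPM in DMSO and 0.54, 0.31 and 0.39 TPM in H182. LAMB4 was at 0.17 to 0.36 and 0 to 0.12 TPM. In ITGA7, ITGB8 and LAMB4 the groups did not overlap, but at such levels the reads behind a value are unknown. Across the 22 tested genes the correlation of log10 span with log2 change was r = -0.21 (Spearman's rho = -0.21), and across 12250 tested genes with a span r = -0.08. Genes are not independent replicates, and all share the same libraries.

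Partner genes of the 2 families were read from 6 lists, with no test of a list as a whole. Over the 103 tested genes of the lists, 30 were lower and 4 higher in TPM, and 11 and 5 in rescaled TPM. For all tested genes the shares were 18.7% and 5.3% in TPM and 6.78% and 7.88% in rescaled TPM. Among tested genes averaging 100 TPM or more, 35.2% were lower in TPM and 11.6% in rescaled TPM. The lists hold genes of that level too, such as ACTN1, THBS1 and PLEC. Each list count below is to be read beside all these shares.

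Of 30 tested activators and cytoskeletal linkers, 9 fell, 0 rose and 21 did not pass (3 lower and 1 higher in rescaled TPM; median change -0.14). BCAR1, the scaffold p130Cas that is phosphorylated at adhesions, fell from 82.0 ± 1.38 to 59.1 ± 3.83 TPM (a log2 change of -0.47 with an adjusted p of 0.000382). The talin-binding linker vinculin (VCL) fell from 99.8 ± 2.48 to 78.6 ± 1.25 TPM, KANK2, which binds talin at the rim of adhesions, from 93.2 ± 5.97 to 70.2 ± 3.63 TPM, and the actin crosslinker ACTN1 from 600 ± 11.1 to 521 ± 5.42 TPM. BCAR1, VCL and KANK2 also passed in rescaled TPM, and ACTN1 did not. Of the kindlin genes, FERMT1 fell from 11.01 ± 0.516 to 8.66 ± 0.340 TPM (adjusted p = 0.0284, lost in rescaled TPM), and FERMT2 was at 95.7 ± 1.21 and 105 ± 2.88 TPM (adjusted p = 0.0522) and passed as higher after rescaling (adjusted p = 0.00458). Talin itself (TLN1) was at 272 ± 9.21 and 256 ± 29.03 TPM (adjusted p = 0.386). FERMT1, FERMT2 and TLN1 were named after their values were seen.

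Of 9 tested basement membrane partners, 3 fell and 0 rose (1 and 0 in rescaled TPM; median -0.19). They were PXDN, the peroxidase that crosslinks collagen IV (117 ± 4.51 to 97.3 ± 5.21 TPM), the collagen IV chain COL4A1 (16.2 ± 0.535 to 12.6 ± 0.180 TPM) and agrin, AGRN, which ties laminin to dystroglycan (67.1 ± 2.22 to 56.4 ± 3.23 TPM). COL4A1 was the one that passed with both scalings. Nidogen genes, whose products link laminin to collagen IV, were low, with NID1 at up to 0.03 TPM and NID2 at up to 1.01 TPM.

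Of 15 tested laminin receptors outside the integrins, which include the sugar-modifying enzymes of dystroglycan, 4 fell and 0 rose (3 and 0 in rescaled TPM; median -0.14). Dystroglycan (DAG1) fell from 93.7 ± 3.38 to 71.8 ± 3.01 TPM (log2 change -0.38, adjusted p = 0.000782), BCAM, a receptor for laminin α5, from 17.7 ± 0.373 to 11.4 ± 0.951 TPM (-0.59, adjusted p = 0.00106), and the syndecan SDC1 from 95.9 ± 5.20 to 74.7 ± 5.27 TPM (-0.36, adjusted p = 0.00348). RPSA, a ribosomal protein also described as a laminin receptor and known for many processed pseudogenes that can share its reads, fell from 1501 ± 8.13 to 1400 ± 39.2 TPM, a call lost in rescaled TPM (0.00).

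The ligand list held the largest rises. Of 17 tested integrin ligands outside the laminins, 2 rose and 3 fell (2 and 0 in rescaled TPM, median -0.11). The share of falls was thus near that of all tested genes in TPM, 18.7%. The count of 3 lower became 0 without DMSO replicate 2 or H182 replicate 2, and 1 without DMSO replicate 3 or H182 replicate 1. It was also 0 with quantile normalization, with no mean-variance trend and with no filter on low values. CTGF and CYR61, matricellular proteins bound by several integrins, rose on the log2 scale by 1.18 (775 ± 0.458 to 1762 ± 40.1 TPM, adjusted p = 3.93e-09) and by 1.07 (1117 ± 7.08 to 2339 ± 55.0 TPM, adjusted p = 7.88e-09). THBS1, thrombospondin, fell from 1201 ± 48.8 to 1046 ± 61.0 TPM and tenascin, TNC, from 61.0 ± 4.32 to 52.6 ± 0.432 TPM, both calls lost in rescaled TPM. Fibronectin (FN1), the ligand of the ITGA5 and ITGB1 pair, was at 155 ± 5.40 and 156 ± 8.60 TPM (adjusted p = 0.995).

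Of 14 tested hemidesmosome, tetraspanin and membrane partners, 4 fell and 2 rose (2 and 2 in rescaled TPM; median -0.12). Without DMSO replicate 1, 2 were lower, and without any other single library 1 was higher. With quantile normalization or no mean-variance trend 2 were lower, and with no filter on low values or no mean-variance trend 1 was higher. Plectin (PLEC), which binds the ITGB4 tail, fell from 417 ± 10.4 to 306 ± 23.2 TPM (log2 change -0.45, adjusted p = 0.000359) and caveolin (CAV1) from 417 ± 6.69 to 327 ± 9.77 TPM (-0.35, adjusted p = 0.000141). The tetraspanin CD9 fell from 139 ± 4.34 to 120 ± 6.67 TPM, a call lost in rescaled TPM. SLC3A2, the CD98 heavy chain that binds β1 tails and carries amino acid transporters, rose from 410 ± 9.55 to 641 ± 8.17 TPM (0.64, adjusted p = 8.94e-07). Of 18 tested genes for integrin endocytosis and recycling, 7 fell and 0 rose (2 and 0 in rescaled TPM; median -0.14). Without DMSO replicate 2, 4 were lower, and with quantile normalization 3 were. ARF6, a small GTPase of the recycling route, fell from 146 ± 3.44 to 102 ± 3.06 TPM (-0.51, adjusted p = 3.08e-05) and EHD1, which acts in return to the surface, from 289 ± 22.1 to 183 ± 9.27 TPM (-0.66, adjusted p = 5.69e-05). SNX17, which spares β1 from degradation, and the clathrin adaptor AP2A1 fell by 0.22 each on the log2 scale, and did not pass in rescaled TPM.

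**Figure D5:**
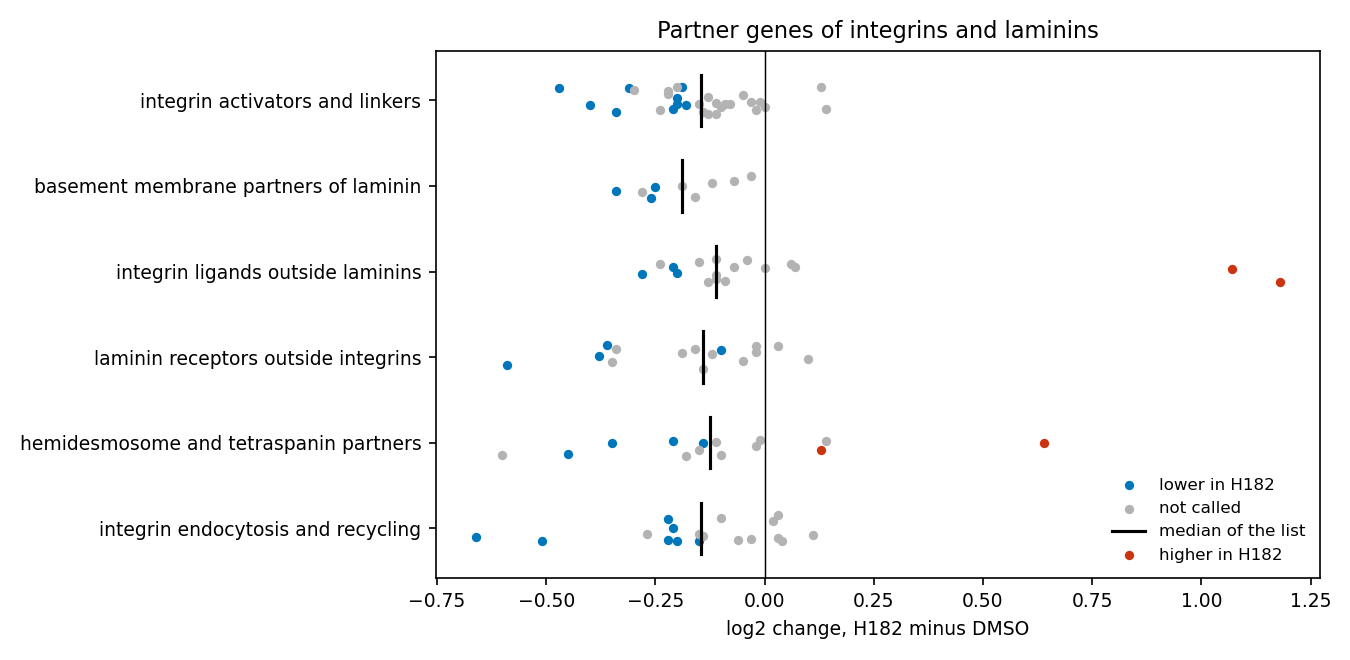
Log2 change of H182 against DMSO in TPM (horizontal axis) for the tested genes of 6 partner lists, 1 row per list. Red points were called higher, blue points lower and grey points not called, and black bars are list medians, which lie between -0.19 and -0.11. The 2 points past 1 are CYR61 and CTGF.

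Markers of other cell types were low. The endothelial, platelet and fibroblast lists summed to at most 5.69, 1.02 and 9.96 TPM in any library, and CDH5, PPBP, GP9 and DCN were listed at 0 in at least 5 of 6 libraries. These lists were not at 0 throughout. Of the 5 endothelial markers 1 averaged 1 TPM or more and was tested, as were 2 of the 6 fibroblast markers and 0 of the 5 platelet markers. None of the tested markers of these lists was called. Luminal keratins were present, and of 4 tested luminal markers 3 fell and 0 rose (1 and 0 in rescaled TPM): GATA3, a luminal transcription factor, from 10.3 ± 0.883 to 6.75 ± 0.453 TPM, KRT8 from 482 ± 5.51 to 428 ± 10.3 TPM and KRT18 from 466 ± 8.13 to 423 ± 18.4 TPM. Of these, GATA3 passed in rescaled TPM. Of 6 tested mesenchymal markers 5 fell and 0 rose (CAV1, CD44 and AXL, that is 3, and 0 in rescaled TPM), and the summed level of that list was 6670 to 6824 TPM in DMSO and 5666 to 6020 TPM in H182. Of all tested genes, 18.7% were lower in TPM and 6.78% in rescaled TPM. Among tested genes averaging 100 TPM or more, the shares were 35.2% and 11.6%. The part of the marker shifts in the changes of integrin and laminin genes was not tested.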

How the data were processed

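Poly-A RNA of 6 MDA-MB-231 libraries was analysed from the deposited table of TPM, which the authors computed per gene and library. The submitters' processing notes name the aligner STAR (2.5.0), the quantifier RSEM (1.2.25) and the GRCh38 genome build. The annotation, strand setting and read depth are not given in the sources used here. Of 27567 rows, 92 spike-in rows and 24 duplicate Y-chromosome rows were left out. Values were log2(TPM + 1), with a pseudocount of 1 that understates changes of low genes. Genes averaging 1 TPM or more across all 6 libraries were fitted with limma 3.58.1 in R 4.3.3 (mean-variance trend, two-sided, Benjamini-Hochberg over 12294 genes, threshold 0.05). The fit was tested on simulated data first. Coordinates are from GENCODE 29 (GRCh38), matched by gene identifier. Counts and fits include every gene of the rule; results of 1 tested gene and 1 marker are not reported here. The other genes at or over 1 TPM were named, and of each partner list up to 4 genes with the lowest p among those passing. The list genes FERMT1, FERMT2, TLN1, FN1, NID1, NID2 and CDH1 were named outside this rule. The genes and lists were chosen with earlier results of these data known. Alternatives covered the pseudocount, the filter, scaling, variance trend, a replicate block and leaving out each library. Figures used matplotlib 3.10.9 in Python 3.11.15.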

Additional observations from a re-analysis of the deposited data

How the results depend on the processing

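ITGB5, ITGB1, ITGA6, ITGA3 and LAMC1 were called lower in all 13 alternatives. The count of integrin and laminin genes called lower (11) moved to 5 with median-of-ratios scaling and 7 with quantile normalization, and that of partner genes (30) to 11, 17 and, with no mean-variance trend, 18; the cause was not tested. Leaving out 1 library gave 8 to 11 and 23 to 31. Over all tested genes 78.0% of calls were lower in TPM, 46.2% with median-of-ratios scaling and 60.2% with quantile normalization. Signs turned, for genes that had not passed, in ITGB2 (0.03) and LAMA3 (0.00) with median-of-ratios scaling, and on leaving out 1 library in ITGA10 (-0.05 to 0.12), ITGAE (-0.06 to 0.11), ITGBL1 (-0.16 to 0.02), LAMA3 (-0.24 to 0.08) and LAMA4 (-0.23 to 0.07). Of 281 values of single genes under alternatives, 234 kept their direction and side of the threshold. Libraries of equal replicate number showed no shared deviation (correlation of deviations -0.036 to 0.002), which cannot show whether they were prepared as pairs. With a replicate block 10 of the 11 genes were called, and 1 hemidesmosome and tetraspanin gene was higher in place of 2. Depth is unknown, so no detection limit can be given for genes under 1 TPM.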
